A study of Mus musculus with 21 samples.

Results

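Cytosolic ribosomal proteins are the proteins that build the large and the small subunit of the ribosome outside mitochondria. Their genes were taken by name, as all rows whose symbol is Rpl, Rplp or Rps followed by a number, with or without a closing a, l or x and a further digit, together with Rpsa. The rule took 85 of the 12994 rows of the expression table, 49 of the large and 36 of the small subunit. It did not take Fau and Rpl36al, which also encode ribosomal proteins, nor the 170 rows that are named as ribosomal protein pseudogenes. In the GENCODE M21 annotation of the mouse genome, 81 of the 85 genes are protein coding and 4 are processed pseudogenes (Rps3a2, Rps3a3, Rps12l1 and Rps4l), so that the rule holds a few rows that the name "ribosomal protein" does not fully fit.

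The study asked whether housing changes gene expression in T cells of the spleen. Female C57BL6/J mice entered their housing when 4 weeks old and were sampled 4 weeks later; this was either the enriched environment (EE, 12 to 15 mice to a large cage that held toys and wheels) or the standard one (SE, 5 to 6 mice to a smaller cage). CD4+ T cells (labelled LT4) and CD8+ T cells (labelled LT8) were sorted from each spleen, and RNA molecules were counted with a molecular identifier placed at the 5′ end. The samples were LT4 EE (n = 6), LT4 SE (n = 5), LT8 EE (n = 6) and LT8 SE (n = 4), from 12 mice, 9 of which gave both populations. The animals of an environment shared a cage, so that the cage and the environment cannot be told apart.

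A sample held between 145546 and 221454 molecules (median 182470), on 9302 to 10137 genes. LT4 libraries were the smaller ones, with medians of 164056 in EE and 176086 in SE against 191906 and 194488 in LT8. Defining markers fitted the labels. Cd4 had 46 to 80 molecules in each LT4 EE sample and 45 to 64 in each LT4 SE sample, and at most 1 in any LT8 sample. Cd8b1 had 194 to 267 molecules in LT8 EE and 203 to 246 in LT8 SE, against at most 4 in LT4 EE and 10 in LT4 SE. In 2 LT8 libraries, haemoglobin genes stood apart. Summed over a list of 6 red cell and platelet genes, LT8 EE replicate 6 had 676 molecules and LT8 SE replicate 3 had 1170, against at most 24 in any other sample. Pf4, the platelet gene of the list, had at most 4 molecules in LT8 EE samples and 0 in LT8 SE samples. Results that use these 2 libraries are also given without them where a call changed.

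A ribosome is made from ribosomal RNA and a set of ribosomal proteins. Most of their mRNAs begin with a run of pyrimidines at the 5′ end, the terminal oligopyrimidine tract, through which the kinase complex mTORC1 controls their translation. An mRNA count does not show how much of it is translated.

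Member genes took a large part of each library, at least 24.6% and at most 29.2%. Their share was 26.6% ± 1.85 (SD, n = 6) in LT4 EE, 26.4% ± 1.50 (n = 5) in LT4 SE, 28.0% ± 1.05 (n = 6) in LT8 EE and 27.4% ± 0.477 (n = 4) in LT8 SE. In LT4 EE the lowest sample was at 24.8%, the median at 26.0% and the highest at 29.2%. In LT4 SE the 5 samples were at 28.0%, 24.6%, 26.6%, 25.1% and 27.6%. High and low samples occurred in both environments of LT4. In LT8 EE the lowest, median and highest samples were at 26.3%, 28.2% and 29.1%, and in LT8 SE the 4 samples were at 27.2%, 28.0%, 27.6% and 26.9%. All 4 groups overlapped. Counting error was small beside this spread: for LT4 EE replicate 1, the sample with the fewest molecules and the highest share, the 95% Wilson interval ran from 29.0% to 29.5%, and for LT4 SE replicate 3, with the lowest share, from 24.4% to 24.8%. These intervals cover counting error only.

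The share was 1.25 points lower in LT4 than in LT8 (LT4 minus LT8, −1.25 points as the difference of group means), less than the pooled SD of 1.38 points between replicates. EE minus SE was 0.193 points in LT4 (pooled SD 1.70) and 0.630 points in LT8 (pooled SD 0.879). None of the 3 differences was larger than the spread between replicates. Without the 2 libraries with haemoglobin RNA, left out after seeing the data, EE minus SE in LT8 was 1.03 points (pooled SD 0.628), larger than the spread, and LT4 minus LT8 was −1.40 points (pooled SD 1.38). As a sum over chosen genes, the share was not tested.

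**Figure D1:**
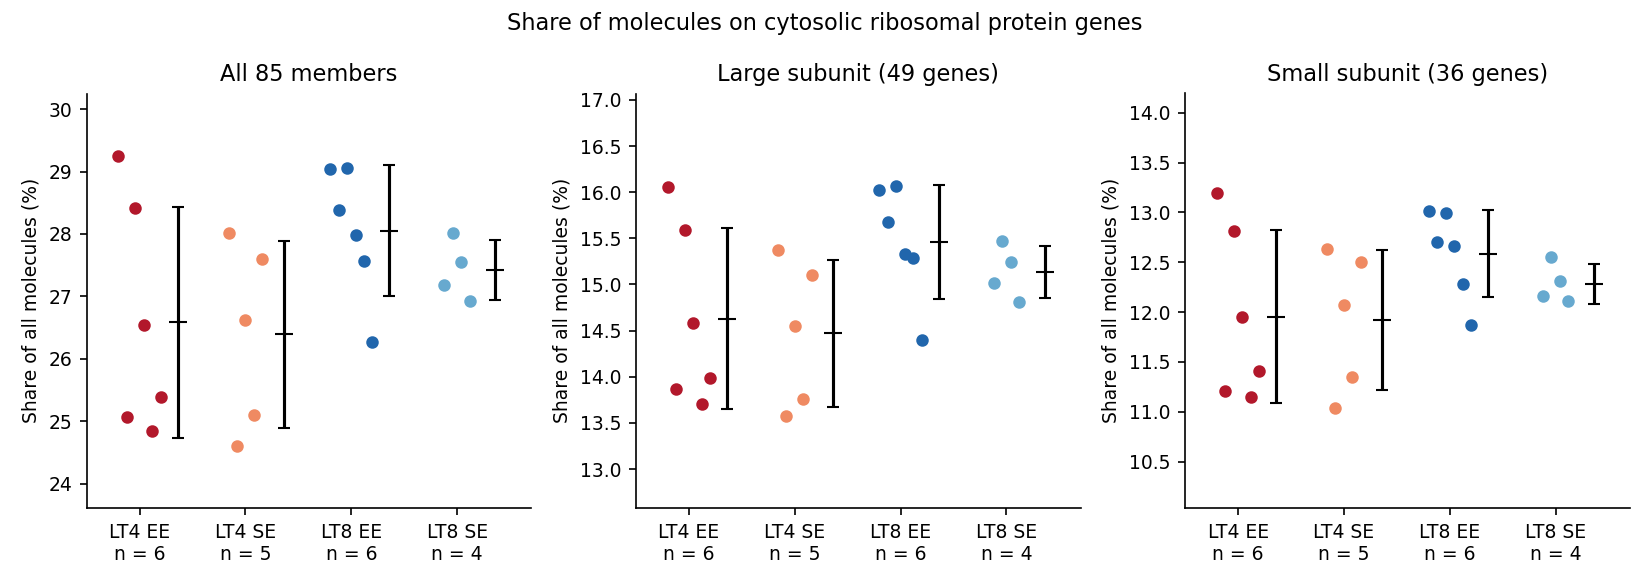
Share of all molecules of a sample (%) on the 85 member genes, on the 49 large subunit genes and on the 36 small subunit genes, by group. Points are samples and bars are the mean ± SD; the vertical axes do not start at 0. LT4 samples spread from 24.6% to 29.2% and LT8 samples from 26.3% to 29.1% over all members.

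The large subunit took 14.6% ± 0.982 of molecules in LT4 EE, 14.5% ± 0.796 in LT4 SE, 15.5% ± 0.619 in LT8 EE and 15.1% ± 0.284 in LT8 SE. The small subunit took 12.0% ± 0.871, 11.9% ± 0.705, 12.6% ± 0.439 and 12.3% ± 0.198 in the same order. The ratio of large to small subunit molecules ran from 1.21 in the lowest to 1.25 in the highest of the 21 samples. Its group means were 1.22 ± 0.00813 in LT4 EE, 1.21 ± 0.00992 in LT4 SE, 1.23 ± 0.0140 in LT8 EE and 1.23 ± 0.00705 in LT8 SE. LT4 minus LT8 was −0.0108 (pooled SD 0.0104) and EE minus SE in LT4 was 0.00979 (pooled SD 0.00897), both slightly larger than the spread between replicates, while EE minus SE in LT8 was −0.00371 (pooled SD 0.0119). The samples of the groups overlapped, and the ratio was not tested.

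The share can also be followed within a mouse. LT4 lay below LT8 in 6 of the 9 mice with both populations, with the largest gap in EE mouse 2 (25.1% against 28.4%, a difference of −3.31 points). It lay above LT8 in EE mouse 1 by 0.217 points, in SE mouse 6 by 0.681 points and in SE mouse 1 by 0.837 points. Of the 82 members with a mean above 2, 79 were lower in LT4 than in LT8 in EE mice 2 and 5 and in SE mouse 3, but only 12 were in SE mouse 1, 22 in SE mouse 6 and 32 in EE mouse 1. The members thus shifted as a block from mouse to mouse, and not in the same direction in every mouse.

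Single members differed widely in level. Each molecule was counted once from its 5′ end, so the values do not grow with gene length, and levels are given as deposited, in molecules divided by the size factor of the sample. Over the 21 samples the median member had a mean of 573, against 3.21 for the median row of the table, and 73 of the 100 most abundant rows were members. The median was 536 for large and 629.5 for small subunit genes. Among the 10 highest members were Rps27 (mean 1181), Rplp1 (1161), Rps24 (977), Rps29 (945), Rps3 (921), Rpl13a (909), Rps23 (906), Rpl13 (867) and Rps16 (849.7), and the 10 together held 20.2% of the member molecules. Rps27 and Rplp1 lay closer together than the spread between samples of a group, at 1176 ± 93.4 and 1160.0 ± 133 in LT4 EE (SD, n = 6). Rps24, next in this order, lay further below Rplp1 than this spread, at 965 ± 100 in LT4 EE.

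A few members were far lower. A total of 78 had a mean above 100, and 4 lay between 2 and 100: Rps27l (26.6), a close relative of Rps27, the pseudogene Rps3a2 (11.8), Rpl7l1 (9.20), a close relative of Rpl7, and Rpl24 (6.25), a gene of the large subunit itself. The remaining 3, at or under a mean of 2, were the pseudogene Rps12l1 (1.97), Rpl39l (0.449), a relative of Rpl39 known from the testis, and the pseudogene Rps4l (0.300). Rpl22l1, which can take the place of Rpl22 in the ribosome, reached 176 against 309 for Rpl22. Rpl3l and Rpl10l were not among the rows.

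These levels depend on how reads were divided among near-identical genes. In GENCODE M21, 76 of the 85 members had near-identical sequence (98% identical or better, over 50 bases or longer) in the transcripts of another annotated gene, and 261 rows outside the members matched a member in this way. Of these 261 rows, 99 were named as ribosomal protein pseudogenes. Some were as high as the members themselves: Gm10076, which matches Rpl41, had a mean of 708, Rps19-ps6 had 531 and Gm14303, which matches Rps29, had 491. Other rows do not carry the name of a ribosomal protein gene. The highest row that matched Rpl7l1 was Cd9 (mean 10.8), and the highest that matched Rplp2 was Wdr89 (42.6). A match shows a shared stretch only, and not that the whole row is a copy of the member. The level of a single member with such a match is therefore uncertain. Rpl24 with its 2 near-identical rows came to 49.5 ± 4.66 in LT4 EE (n = 6) and 54.8 ± 16.8 in LT4 SE (n = 5), still below most members.

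The near-identical rows together held 5.66% ± 0.252 of molecules in LT4 EE, 6.57% ± 0.615 in LT4 SE, 6.58% ± 0.257 in LT8 EE and 6.72% ± 0.632 in LT8 SE. In LT4 EE they ran from 5.33% to 6.02% (median 5.71%), while the LT4 SE samples were at 6.84%, 6.35%, 6.83%, 5.61% and 7.20%, of which 1 lay in the EE range. With these rows added to the members, EE minus SE in LT4 was −0.712 points in place of 0.193 points, so that the sign of this difference depended on which rows were counted. Rows named as pseudogenes showed the same order of group means, with 2.37% ± 0.106 in LT4 EE, 2.80% ± 0.280 in LT4 SE, 2.83% ± 0.148 in LT8 EE and 2.88% ± 0.350 in LT8 SE. As 99 of the 261 near-identical rows are among them, the orders are not independent.

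Between LT4 and LT8, 3 members passed the threshold and all were lower in LT4, among them Rpl23a and Rpl7a. The test was limma on log2(value + 1) over all 7938 genes with a mean above 2, with Benjamini-Hochberg adjustment over them and a threshold of 0.05. The 3 calls of 82 members tested stand beside 349 calls in all genes tested (4.40%), and beside 164 genes that were lower in LT4 (2.07%), so the share of members called was near the background. The differences of the members were small and mostly of one sign. Of the 82 members 77 had a negative log2 difference (LT4 minus LT8), the median was −0.09 against −0.01 over all genes tested, and 34 had an unadjusted p under 0.05, against 1176 of all genes (14.8%). Both subunits took part, with 46 of 48 large and 31 of 34 small subunit genes below 0 and medians of −0.09 and −0.10. As members vary together from sample to sample, these counts do not come from independent genes.

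Rpl23a, which sits where the growing protein chain leaves the large subunit (chr11:78180932-78183584, minus strand), was at 248, 275 and 368 (lowest, median and highest) in LT4 EE, and at 368, 268, 337, 252 and 364 in LT4 SE. In LT8 EE it was at 309, 366 and 430, and in LT8 SE at 365, 401, 376 and 352. The groups overlapped in both environments. The log2 difference was −0.28 ± 0.07 (limma adjusted p = 0.00989), with lower values in LT4 in 7 of 9 mice. Rpl23a shares sequence with 6 other rows. Its sum with them was 451 ± 69.5 in LT4 EE and 535 ± 102 in LT4 SE, against 605 ± 58.2 in LT8 EE and 647 ± 63.3 in LT8 SE.

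Rpl7a, a large subunit protein (chr2:26910764-26913318, plus strand), was at 211, 276 and 299.7 (lowest, median and highest) in LT4 EE and at 347, 259, 303, 215 and 287 in LT4 SE. In LT8 EE it was at 289, 312 and 362 and in LT8 SE at 328, 331, 319 and 309. LT4 SE replicate 1 was above all LT8 SE samples. The log2 difference was −0.23 ± 0.07 (limma adjusted p = 0.0430), with lower values in LT4 in 8 of 9 mice. This call was lost with the mouse as a block (adjusted p = 0.144), with DESeq2 (0.0571), without the 2 libraries with haemoglobin RNA (0.0591) and without single libraries of either population.

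**Figure D2:**
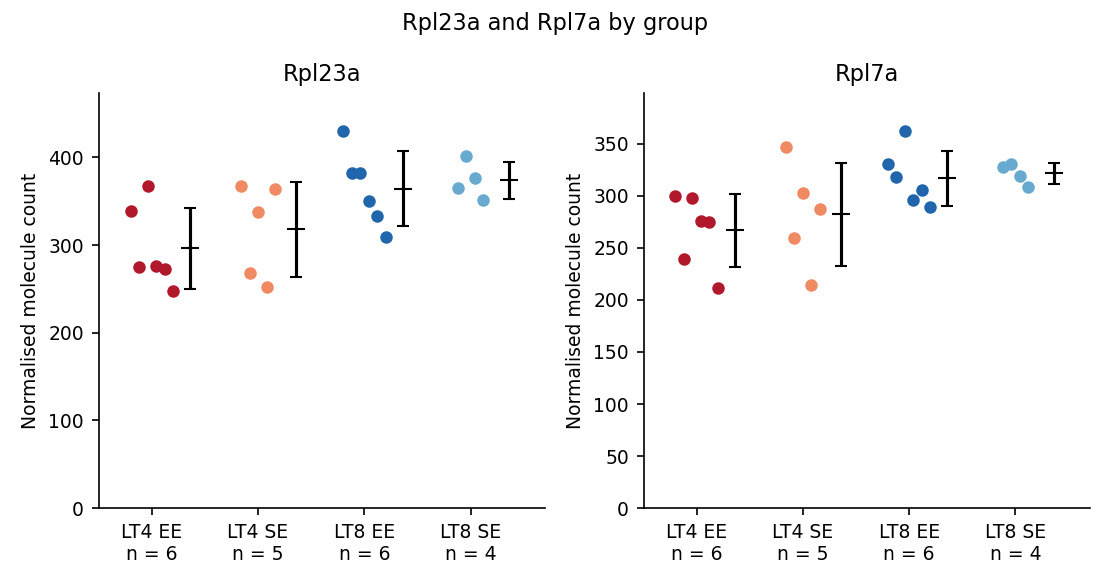
Deposited values (molecules divided by the size factor of the sample) of Rpl23a and Rpl7a by group. Points are samples and bars are the mean ± SD. Each gene had lower means in both LT4 groups than in both LT8 groups, and only some LT4 samples reached the LT8 range.

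The count of called members depended on single LT4 libraries. It was 10 without LT4 EE replicate 1, 9 without LT4 SE replicate 1, 6 without LT4 SE replicate 6 and 5 without LT4 EE replicate 3, the 4 LT4 libraries with the highest ribosomal shares.

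Within EE, the same contrast called, among others, Rpl23a (log2 difference −0.30 ± 0.09, limma adjusted p = 0.0462) and the pseudogene Rps3a3 (−0.33 ± 0.10, adjusted p = 0.0475), all lower in LT4. The calls of Rpl23a and Rps3a3 were each lost in 8 of the 12 fits that left out a single library. Rpl23a was also lost with DESeq2 (adjusted p = 0.0684), and Rps3a3 with size factors taken without the members (limma adjusted p = 0.0502). In all, 3 of 82 members were called, against 227 of 7874 genes (2.88%), of which 111 were lower in LT4 (1.41%). With the mouse as a block, 15 members were called, all lower in LT4, against 302 genes in all (3.84%). Beside Rpl23a, Rps3a3 and Rpl7a, these 15 held Rpl5, Rpl3, Rpl6, Rpl17, Rpl36a, Rpl37 and Rpl38 of the large and Rps3a1, Rps15a and Rps20 of the small subunit. Without the block, 27 members had an unadjusted p under 0.05, against 1077 of all genes (13.7%). With the block there were 43, against 1128 of all genes. Rps3a3 had 162, 185 and 227 (lowest, median and highest) in LT4 EE and 205, 250.1 and 273 in LT8 EE, with overlap. It is annotated as a processed pseudogene on chr13:108670603-108671397 (plus strand), and whether reads of related genes fell on it was not tested. Rps3a1 was at 635 ± 66.8 in LT4 EE and 709 ± 53.4 in LT8 EE.

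Within SE, no member passed the threshold in limma (0 of 83, against 105 of 7961 genes, 1.32%), while 3 members had an unadjusted p under 0.05, against 734 of all genes. DESeq2 called 1 member and edgeR 0. Rpl23a had a log2 difference of −0.25 ± 0.11 (limma adjusted p = 0.401) in SE. In SE 70 of the 83 members were below 0, with a median of −0.09, and in EE 75 of 82, with a median of −0.12. A call in EE that is missing in SE is not a difference between the environments: the interaction of population and environment called no gene at all (0 of 7938, 0%).

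**Figure D3:**
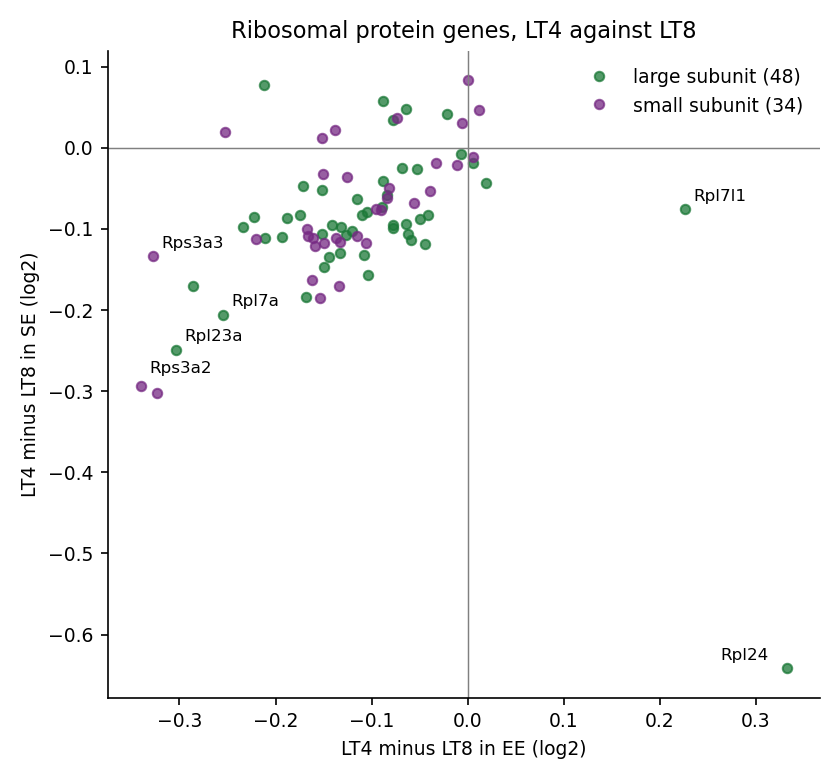
Log2 difference LT4 minus LT8 of 82 members in EE (horizontal) and in SE (vertical), 48 of the large and 34 of the small subunit. Both values were below 0 for 65 members; Rpl24, Rpl7l1 and Rps3a2 have means under 100, and the samples of the 2 axes come from different mice.

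Markers of B cells moved with the same contrast, although the authors sorted cells that stained for CD3, a marker of T cells, and for CD4 or CD8. Of 12 B cell genes, 9 were tested and 7 were higher in LT4, led by Cd74 (log2 difference 4.91 ± 0.33, limma adjusted p = 3.94e-19), H2-Ab1 (4.57 ± 0.33), H2-Eb1 (4.30 ± 0.36), Cd79a (3.08 ± 0.40) and Igkc (1.86 ± 0.38). The list summed to 213 to 352 molecules in LT4 EE (median 267) and to 36 to 136 in LT8 EE (median 50.5). In LT4 SE it came to 40, 547, 321, 233 and 327 molecules, and in LT8 SE to 49, 49, 55 and 43. In LT4 its most abundant gene was Cd74, with 678 molecules over the LT4 EE and 506 over the LT4 SE samples. In LT8 it was Ighm, with 254 molecules over the LT8 EE and 167 over the LT8 SE samples, against 51 and 7 for Cd74. Ighm itself overlapped between the populations, with 26 to 46 molecules in each LT4 EE sample and 29 to 61 in each LT8 EE sample. Ms4a1 and Ebf1 were at 0 in all LT8 EE samples, and Cd22, Cd79a, Ebf1, Igkc and Ms4a1 in all LT8 SE samples. LT4 SE replicate 1, the library with 40 molecules, had values of Rpl23a (368) and Rpl7a (347) within or above the range of the LT8 SE samples. LT4 SE replicate 6, with 327 molecules, had Rpl23a (364) within that range and Rpl7a (287) below it. In LT4 SE replicates 3, 4 and 5 both genes were below the range of the LT8 SE samples. The whole list made up 0.169% of molecules in LT4 EE and 0.166% in LT4 SE, against 0.0327% in LT8 EE and 0.0254% in LT8 SE. Its part in the differences of the members was not tested. In bulk samples, fewer cells of a type and less RNA per cell cannot be told apart.

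Among other markers, 3 of the 11 T cell genes passed between the populations, with Cd5 (73.5 ± 7.62 in LT4 EE against 33.9 ± 5.29 in LT8 EE) and Cd247 (0.49 ± 0.13) higher in LT4 and Thy1 lower (−0.54 ± 0.11). Prf1, the perforin gene of cytotoxic cells in the natural killer list, was lower in LT4 (−1.63 ± 0.33). The 1 myeloid gene tested and the 4 tested genes of the red cell and platelet list did not pass.

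By role in the ribosome, the members gave small values of one sign between LT4 and LT8. The stalk, which recruits the factors that drive elongation, consists of Rplp0, Rplp1 and Rplp2 on a base that includes Rpl12, and its 4 genes lay between −0.10 and −0.06 on the log2 scale, with none past the threshold. Rpl5 and Rpl11 bind 5S ribosomal RNA and, when not in a ribosome, the p53 regulator Mdm2. Rpl5 was at −0.23 ± 0.07 (limma adjusted p = 0.0661) and Rpl11 at −0.09 ± 0.05 (adjusted p = 0.494). Of the 10 genes around the exit tunnel, 1 passed (Rpl23a), with a median of −0.12 over the list. None of the 5 genes near the transfer RNA sites of the large subunit passed (median −0.13), nor did any of 5 at the mRNA entry and decoding site (median −0.06) or of 5 at the mRNA exit side and platform (median −0.09). Rps6, which S6 kinases phosphorylate downstream of mTORC1, was at −0.15 ± 0.06 (adjusted p = 0.124). Rps27a, made as a fusion with ubiquitin, was at −0.08 ± 0.06 (adjusted p = 0.558).

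Close relatives of core genes were also tested. Between LT4 and LT8, Rpl22l1 was at −0.07 ± 0.08, Rps27l at −0.12 ± 0.16 and Rpl7l1 at 0.08 ± 0.25, and none passed the threshold. Rpl39l and Rps4l were too low to test.

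Ribosomal genes outside the name rule gave the same picture. Gnb2l1, which encodes the ribosome-bound scaffold RACK1, was lower in LT4 (−0.23 ± 0.06, limma adjusted p = 0.0194), with 309.9 ± 44.8 in LT4 EE, 309 ± 29.3 in LT4 SE, 368 ± 18.6 in LT8 EE and 355 ± 16.3 in LT8 SE. Fau (−0.02 ± 0.05) and Rpl36al (−0.14 ± 0.08) did not pass. A list of 18 tested genes outside the members, known for a terminal oligopyrimidine tract, also holds Gnb2l1 and Fau. Of these 18, 4 passed and all were lower in LT4, beside 4.40% called and 2.07% called lower over all genes. They were Gnb2l1, the elongation factor genes Eef1g (−0.28 ± 0.08, limma adjusted p = 0.0336) and Eef1b2 (−0.22 ± 0.07, adjusted p = 0.0393), and Npm1 (−0.25 ± 0.08, adjusted p = 0.0446), a nucleolar chaperone. In that list 17 of 18 genes were below 0, with a median of −0.17. In the fits within EE and within SE, 0 of the 18 passed.

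Lists of genes around ribosome production are given beside the 4.40% called and the 2.07% called lower over all genes. Of 39 tested assembly genes 1 was called, Npm1, with 28 below 0 and a median of −0.22. None of 16 genes for ribosomal RNA synthesis (median −0.13) and none of 11 genes of the mTORC1 kinase complex, its regulators and targets (median 0.09) was called. Of the 76 proteins of the mitochondrial ribosome, which is built separately, 1 was called (Mrps36, −0.73 ± 0.20, adjusted p = 0.0174), with 47 below 0. The mitochondrial list took 0.543% ± 0.0300 of molecules in LT4 EE, 0.511% ± 0.0266 in LT4 SE, 0.553% ± 0.0300 in LT8 EE and 0.537% ± 0.0397 in LT8 SE.

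Between EE and SE in LT4, no member differed past the threshold. Limma called 0 of 82 members, against 1 of 7939 genes in all (0.0126%), with 0 members at an unadjusted p under 0.05, against 462 of all genes, and edgeR and DESeq2 called 0 members. The members were split, 46 above and 36 below 0, with a median log2 difference (EE minus SE) of 0.01 against 0.00 for all genes. The smallest unadjusted p of members above 0 included those of Rpl19 (0.11 ± 0.08, limma adjusted p = 0.911) and Rpl24 (0.48 ± 0.43). Below 0 they belonged to Rps3a3 (−0.20 ± 0.12, adjusted p = 0.855), Rpl22l1 (−0.19 ± 0.12) and Rps3a2 (−0.52 ± 0.33). Rpl22l1 lay at 147, 158 and 173 (lowest, median and highest) in LT4 EE and at 206, 170.2, 177, 147 and 218 in LT4 SE, with overlap. The stalk genes lay between −0.01 and 0.08, Rpl5 at −0.12 ± 0.12, Rpl11 at 0.06 ± 0.09 and Rps6 at 0.06 ± 0.09.

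Between EE and SE in LT8, again no member passed. Limma called 0 of 83 members and 0 of 7840 genes (0%), with 3 members at an unadjusted p under 0.05, against 413 of all genes (5.27%), and edgeR and DESeq2 called 0 members. Most members were slightly higher in EE, 70 of 83, with a median log2 difference of 0.04 against −0.01 for all genes. The leading ones were Rpl7 (0.15 ± 0.07, limma adjusted p = 0.923), Rps26 (0.11 ± 0.05) and Rps18 (0.11 ± 0.05). Rps26, at the mRNA exit side of the small subunit, was at 653, 682 and 704 (lowest, median and highest) in LT8 EE and at 626, 618, 625.3 and 641 in LT8 SE, without overlap. Below 0 were Rps3a2 (−0.47 ± 0.29), Rpl24 (−0.50 ± 0.39) and Rpl7l1 (−0.40 ± 0.37), which are among the 7 lowest members. The stalk genes lay between −0.01 and 0.05, and Rps6 was at 0.03 ± 0.06. Without the 2 libraries with haemoglobin RNA the median was 0.08, and 0 members were called.

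The interaction, the EE minus SE difference in LT4 less that in LT8, called 0 of 82 members in limma, edgeR and DESeq2, with 0 at an unadjusted p under 0.05, against 393 of all genes. Of the 82, 58 were below 0, with a median of −0.03 against 0.00 for all genes. The leading values were those of Rpl24 (0.97 ± 0.58, limma adjusted p = 0.994), Rpl19 (0.06 ± 0.10) and Rpl12 (0.07 ± 0.12) above 0, and of Rpl22l1 (−0.29 ± 0.16), Rps28 (−0.16 ± 0.10) and Rps15 (−0.16 ± 0.11) below. With a few molecules per sample, Rpl24 had the widest error of these.

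Members also differed in how steady they were. Among the 78 members with a mean above 100, the SD of log2(value + 1) within groups ran from 0.09 (Rps14) to 0.20 (Rpl23a), with a median of 0.13. Rps28 and Rpl8 were next to Rps14 at the steady end. Rps3a3 (0.19) and Rpl22l1 (0.18) were next to Rpl23a, so that 1 of the 3 members called between LT4 and LT8 was also the most variable one. The genes lie on 19 chromosomes, with 15 on chromosome 7 and at most 7 on any other.

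The starts of the genes were searched for such a tract of pyrimidines. The RefSeq table of gene starts (GRCm38.p6) held 61 of the 85 genes with 72 starts. A tract was searched as a C at the annotated start followed by at least 4 letters that are each C or T, on the strand of the gene. It was found at 13 of the 72 starts (18.1%), against 823 of all 32851 starts in the table (2.51%). Annotated starts can lie some bases from the start used in a cell, and a match is only a description of the letters. The windows shown are of members that stand for the stalk (Rplp2), the highest member (Rps27), the S6 kinase target (Rps6), and Rps15a, which was among the members called in EE with the mouse as a block. Each runs from 10 bases before the start to 20 bases from it on, with the tract in capitals.
Rplp2, chr7:141447641-141447670, plus strand: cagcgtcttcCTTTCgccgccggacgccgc
Rps27, chr3:90213629-90213658, minus strand: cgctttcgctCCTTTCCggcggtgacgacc
Rps6, chr4:86857348-86857377, minus strand: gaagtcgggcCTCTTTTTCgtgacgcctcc
Rps15a, chr7:118116128-118116157, minus strand: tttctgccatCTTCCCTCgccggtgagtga
The tract is 5 letters long in Rplp2, 7 in Rps27, 9 in Rps6 and 8 in Rps15a.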

How the data were processed

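Splenic LT4 and LT8 RNA of 21 samples was analysed. The authors trimmed reads with cutadapt, aligned them to mm10 with STAR 2.4.0a, counted molecular identifiers per gene and normalised with DESeq2, so the deposited values are a signal, namely molecule counts divided by a size factor. Dividing each column by its smallest positive value gave whole molecules for 100% of values (tolerance 0.0001). Groups, replicate numbers and mice follow the labels; 0 columns were left unused. Shares used recovered molecules, with 95% Wilson intervals.

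Main tests were limma 3.58.1 in R 4.3.3 (trend, pseudocount 1, mean above 2 in the samples compared, adjusted p under 0.05), checked on simulated data. Alternatives included edgeR 4.0.16 and DESeq2 1.42.0 on recovered molecules, which called 365 and 324 genes between LT4 and LT8. LT4 and LT8 samples of 1 animal are paired by the labels; the deviations of the 9 pairs from their group means correlated by −0.0149 to 0.0354 across genes. BLAST 2.17.0 found near-identical transcripts in GENCODE M21, to which genes were matched by symbol. Members were named by rule: called in any comparison; the 10 highest; those with a mean of 2 or less; the 3 with the smallest p in each direction between environments; and listed roles. Outside the members, up to 6 called genes a list were named. The members and lists were chosen with earlier results of these data known. Near-identical rows and libraries with haemoglobin RNA were considered after seeing the data. Gm10076, Rps19-ps6, Gm14303, Cd9, Wdr89, Ighm, Pf4, Rpl22, Rps3a1, Rps14 and Rpl8 were named after their values were seen.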

Additional observations from a re-analysis of the deposited data

Results flagged for a closer look

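In 4 of 96 sets of values, each a measure in 1 group, 1 sample lay far from the others of its group; chance alone sets apart about 1 in 20. Rpl24 was at 11.2 in LT8 EE replicate 6, where the nearest of the other 5 samples was at 4.70. The genes of red cells and platelets summed to 676 molecules in LT8 EE replicate 6 (nearest sample 7), to 1170 molecules in LT8 SE replicate 3 (nearest sample 9) and to 24 molecules in LT4 EE replicate 4 (nearest sample 9). LT8 EE replicate 6 also had the lowest ribosomal share of its group, 26.3%, while LT8 SE replicate 3 was at 27.6%, within its group; whether this RNA moved the shares was not tested beyond leaving both libraries out.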

How the results depend on the processing

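Of the values for single genes, 237 kept direction and side of the threshold under other settings, 10 lost the call and 1 changed sign: Rpl12 in the interaction, at 0.07 and with the mouse as a replicate block at −0.0132. Between LT4 and LT8, 3 members were called, and 5 with a mean above 10, 7 with equal totals, 8 with sample weights and 2 with the mouse as a replicate block. Within EE, 3 became 1 with a pseudocount of 0.5, 15 with the mouse as a replicate block and 11 with edgeR and that block, a setting added after seeing the data. Within SE, 0 became 1 with equal totals and 1 with DESeq2. Without single libraries the count ran from 2 to 10 between LT4 and LT8, from 1 to 13 within EE and stayed at 0 elsewhere. For these changes, the cause was not tested. The EE and SE samples share only a number, and that number as a replicate block called 0 members in LT4 and 0 in LT8. The share differences ran from −1.51 to −1.02 points (LT4 minus LT8), from −0.339 to 0.599 (EE minus SE in LT4) and from 0.428 to 0.986 (EE minus SE in LT8) without single libraries. Few mice and a shared cage for each environment limit all results, and members with few molecules, such as Rpl24 with 1 to 13, are limited by depth. The tests take samples as independent, while 9 mice gave 2 samples each.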
